A study of Mus musculus with 3 samples.

Results

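Axon guidance ligands and receptors were followed through the lumbar spinal cord of the adult mouse. The 47 genes were taken by symbol from the 31040 genes of the deposited table of unique molecular identifiers (UMIs), which mark single captured RNA molecules. They comprise 3 Slits and 4 Robo receptors, 3 netrins (Ntn1, Ntn4, Ntn5) and 6 netrin receptors (Dcc, Neo1, Unc5a to Unc5d), 7 class 3 semaphorins, 2 neuropilins and 4 class A plexins, 13 semaphorins of classes 4 to 7 and 5 plexins of classes B, C and D. During development these proteins steer growing axons. Slits are secreted repellents bound by Robo receptors, and netrins attract through Dcc and neogenin or repel through Unc5 receptors. Secreted class 3 semaphorins act mostly, though not only, on complexes of neuropilins and class A plexins. Semaphorins of the other classes mostly sit in the membrane and bind plexins directly. Many of them stay expressed in the adult, where they are known in blood vessels, in myelinating cells and at synapses.

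The study compared SOD1G93A mice, which carry many copies of a human SOD1 transgene with a mutation of familial amyotrophic lateral sclerosis, with wild-type (WT) C57BL/6J mice, all at an age of 90 days. Each genotype had 3 females and 3 males. Nuclei of 1 mouse of each sex and genotype were tagged with hashtag antibodies and run together on the droplet-based 10x platform, giving 3 pools, A, B and C. Each mouse is 1 replicate, and counts were summed over its nuclei of a cell type. The transgene is driven by the human SOD1 promoter and is not limited to a cell type, so that an effect within a cell type cannot be told apart from one that reaches it from other cells.

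In all, 14662 nuclei carried 206486779 UMIs, of which 1954905, or 0.947%, fell on the guidance genes. The types and neuron sub-types are those the authors deposited, and they rest on the expression of the same nuclei, so that levels across types are given as a description with no test. Of the 10 types, 8 held nuclei of every mouse, from 8800 neurons to 67 motor neurons (1 to 11 per mouse), while ependymal cells (93 nuclei) were missing in 1 mouse and fibroblasts (46) in 2 mice. The markers went with most labels, with exceptions that touch the levels below. The endothelial nuclei also carried the mural cell markers Pdgfrb, Rgs5 and Notch3 at a summed 3743 CPM (UMIs per 1000000 UMIs of a type in a mouse), above the 2647 CPM of the endothelial markers Cldn5, Pecam1 and Tek. In microglia the sum of Csf1r, Cx3cr1 and P2ry12 was only 103 CPM (54.4 in neurons), whereas the neuronal markers Rbfox3, Snap25 and Syt1 stood at 65.1% of their level in neurons and the oligodendrocyte markers Mbp, Mog and Mobp at 1670 CPM. In the Schwann and meningeal nuclei, which held a median of only 1584 UMIs, the neuronal markers were at 142% of their level in neurons and those of motor neurons (Chat, Prph, Slc5a7) at 403 CPM. In OPC nuclei the oligodendrocyte markers, at 1423 CPM, and the neuronal markers, at 1296 CPM or 43.3% of their level in neurons, both exceeded the 1008 CPM of the OPC markers Pdgfra, Cspg4 and Vcan. The neuronal markers were also at 28.6% of their level in neurons in astrocytes and 25.8% in oligodendrocytes, and the part of such RNA in the levels of these types was not tested. Below, orders of types (highest, next) are among the 8 types with nuclei of every mouse, and values of ependymal cells and fibroblasts, which rest on few UMIs, are given where they are named. The marker values apply wherever levels in microglia or in Schwann and meningeal nuclei are given below. Their part in those levels was not tested. Sod1, to which reads of the human transgene may also map, was higher in SOD1G93A mice in 6 of 6 pairs of the same sex and pool in each of the 8 types.

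Receptors took most of the guidance UMIs. The netrin receptors held 38.6% and the Robo receptors 31.6%, against 5.95% for the Slits, 2.18% for the neuropilins and 0.394% for the netrins. These shares compare amounts of RNA and not numbers of transcripts per gene, since unspliced RNA was counted and Robo1 (737.8 kb) and Dcc (1097.4 kb) are very long genes. Of the 47 genes, 40 had at least 1000 UMIs, and Ntn5 (29 UMIs) and Sema3b (83) had under 100.

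**Figure D1:**
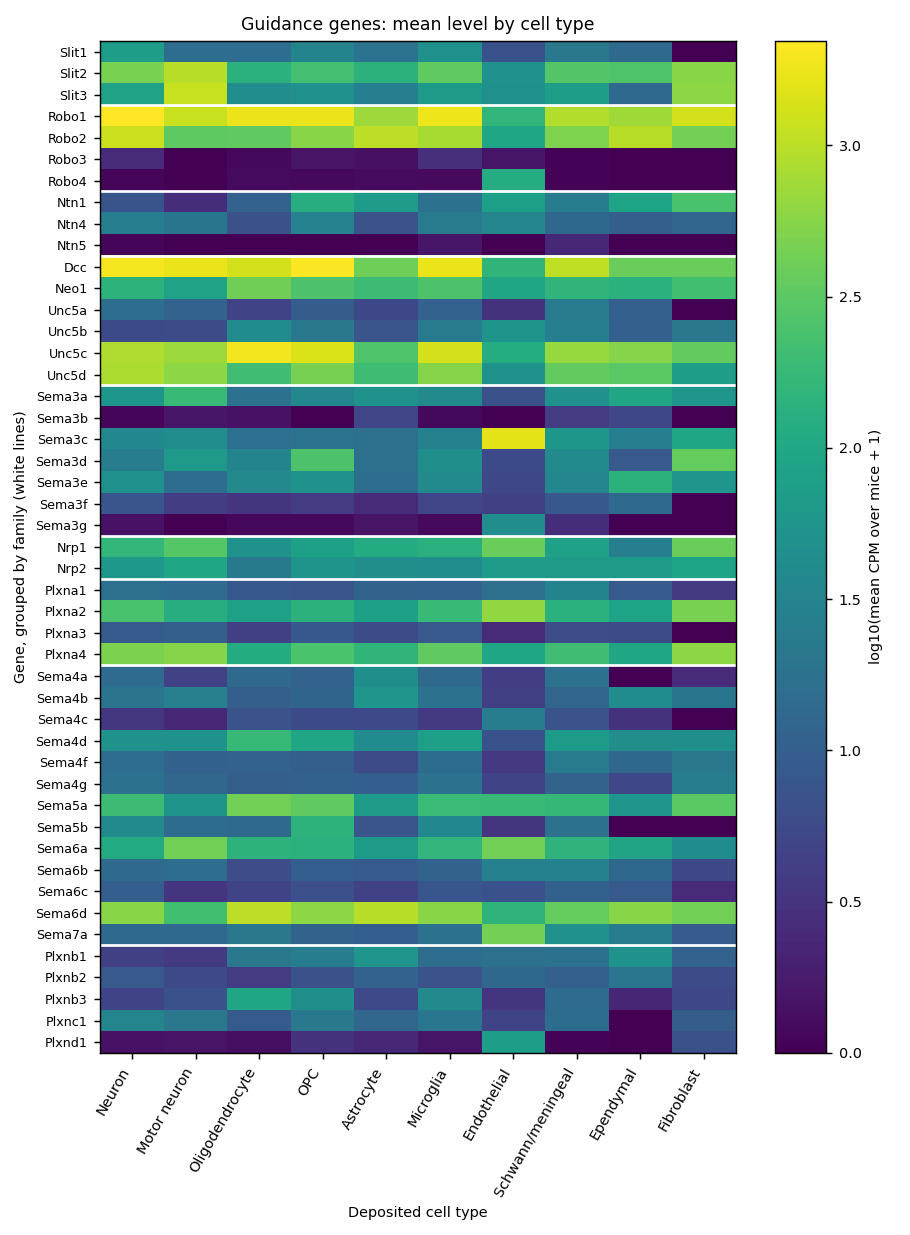
Mean level of each of the 47 guidance genes (rows, grouped by family with white lines between families) in the 10 deposited cell types (columns), as log10 of the mean CPM over mice plus 1. Endothelial nuclei stand out for Robo4, Sema3c, Sema3g, Sema7a and Plxnd1 and motor neurons for Slit2 and Slit3. Robo1 and Dcc are high in neurons, microglia, oligodendrocytes and OPCs, and Dcc also in motor neurons.

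Slit2 and Slit3 were highest in motor neurons among the 8 types with nuclei of every mouse. Slit2 ranged over the 12 mice from 585 to 1410 CPM in motor neurons (median 939) and from 336 to 535 CPM in other neurons (median 462), so that every motor neuron value lay above every value of any other of the 8 types. Slit3 ranged from 497 to 2206 CPM in motor neurons (median 1007), and its mean there, 1145 ± 429 CPM (SD, n = 12), was 13.7 times that of other neurons. In fibroblasts the means were 562 ± 966 CPM for Slit2 and 606 ± 751 CPM for Slit3 (SD, n = 10), from 49 and 56 UMIs. They lay above those of other neurons and below those of motor neurons. The authors named the types from marker genes and from expression profiles of known cell types. The level of Slit3 in motor neurons may therefore be part of how these nuclei were named. Slit1, the third ligand, was highest in neurons (71.4 ± 8.68 CPM) and lay at 5.96 CPM in endothelial nuclei. Of 13568 genes with at least 500 UMIs over the 8 types, 0.295% had every motor neuron value above all others, and among the 42 guidance genes with as many UMIs there were 2, Slit2 and Slit3.

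The receptor Robo1 was at 2216 ± 169 CPM in neurons, 1757 ± 193 in oligodendrocytes, 1744 ± 316 in oligodendrocyte precursor cells (OPCs), 1157 ± 395 in motor neurons and 720 ± 133 in astrocytes. Its second highest mean, 1812 CPM, was in microglia. The ranges of oligodendrocytes (1486 to 2095 CPM) and OPCs (1083 to 2297) overlapped, and those of neurons and astrocytes did not. Relative to its level in neurons, Robo1 was at 79.3% in oligodendrocytes, 78.7% in OPCs and 32.5% in astrocytes. The neuronal markers were at 25.8%, 43.3% and 28.6% in these types, and the part of neuronal RNA in the Robo1 levels was not tested. Robo2 had another distribution among glia, with 1019 ± 83.3 CPM in astrocytes, close below the 1206 ± 92.2 of neurons, but 339 ± 106 in oligodendrocytes, or 28.1% of its level in neurons. Robo4, the vascular member of the family, had 539 of its 572 UMIs in endothelial nuclei, where it ranged from 65.9 to 143 CPM (median 123.3), and its next highest mean, in astrocytes, was 0.269 CPM. Robo3, known from the crossing of commissural axons in the embryo, had 245 UMIs in the whole data set and its mean was under 2 CPM in each of the 8 types.

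Among the netrin receptors, Unc5c and Neo1 were highest in oligodendrocytes. Unc5c, a repulsive netrin receptor, ranged there from 1384 to 2322 CPM (median 2041), above its level in OPCs in 12 of 12 mice (1479 ± 201 CPM) although the ranges overlapped, and it lay at 884 ± 50.7 CPM in neurons and 266 ± 67.6 in astrocytes. Neogenin (Neo1) ranged from 343 to 499 CPM in oligodendrocytes, with every mouse above every mouse of the other 7 types, where the highest single value was 334 CPM, in OPCs. In the background, 0.914% of genes with 500 UMIs lay as far above in oligodendrocytes, and Neo1 was the 1 guidance gene of 42 to do so. Dcc, the attractive receptor, was at 2121 ± 557 CPM in OPCs and 1977 ± 103 in neurons, which differed by less than the spread between mice, and which of these types was the higher changed with the scaling and when WT mice alone were used. Relative to its level in neurons, Dcc was at 89.5% in motor neurons, 88.3% in microglia and 65.6% in oligodendrocytes. Unc5d was highest in neurons (854 ± 83.4 CPM) and motor neurons (596 ± 224), and Unc5b was low in neurons (4.69 CPM) but reached 53.6 ± 21.1 CPM in endothelial nuclei and 39.8 ± 9.79 in oligodendrocytes, an order that turned round when CPM were scaled with TMMwsp factors over all types. The ligand Ntn1 was at 119 ± 53.6 CPM in OPCs, 75.8 ± 27.4 in endothelial nuclei, 68.6 ± 21.2 in astrocytes and 1.76 in motor neurons. In ependymal cells its mean was 86.5 ± 81.7 CPM (SD, n = 11), from 25 UMIs. In fibroblasts the mean of Ntn1 was higher than in any other type, at 240 ± 221 CPM (SD, n = 10) from 56 UMIs, with values between 0 and 632 CPM.

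Secreted class 3 semaphorins divided among the cell types. Sema3c, a ligand of neuropilin and plexin complexes that is known from the development of the heart and vessels, ranged from 1122 to 2284 CPM in endothelial nuclei (median 1474), and its next highest mean among the 8 types was 58.3 CPM, in Schwann and meningeal nuclei. Sema3g was also highest in endothelial nuclei, at 42.4 ± 11.6 CPM, with 1.75 CPM in the next type. In motor neurons Sema3a ranged from 72.3 to 290 CPM (median 187), against 46.4 to 71.7 CPM in other neurons, and was higher in 12 of 12 mice. Among the 8 types, Sema3d was highest in OPCs, at 255 ± 98.4 CPM, 4.10 times the 62.1 ± 44.8 CPM of motor neurons and in 12 of 12 mice, although the ranges overlapped. In fibroblasts, where values of single mice started at 0, the mean of Sema3d was higher than in OPCs, at 363 ± 550 CPM (SD, n = 10) from 46 UMIs, and that of Sema3c was 92.6 ± 172 CPM from 15 UMIs. Their receptor subunits overlapped more. Nrp1 was at 379 ± 84.9 CPM in endothelial nuclei and 287 ± 64.9 in motor neurons, in an order that the TMMwsp scaling turned round, and Nrp2 at 70.5 and 93.0 CPM in the same 2 types. The class A plexin Plxna2 ranged from 475 to 855 CPM in endothelial nuclei, above every mouse of the other 7 types (neurons 242 ± 23.6 CPM), whereas Plxna4 was at 542 CPM in motor neurons and 484 CPM in other neurons and differed there by less than the spread between mice. Fibroblast means of Nrp1 (384 ± 364 CPM, 60 UMIs) and Plxna4 (589 ± 978 CPM, 103 UMIs) lay above these, with a wide spread.

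Endothelial nuclei also held several members of the other classes. Sema7a, which is anchored to the membrane by a lipid, ranged from 381 to 527 CPM there (median 436) and had its next highest mean, 48.4 CPM, in Schwann and meningeal nuclei. Plxnd1, the plexin of the vasculature, ranged from 43.6 to 115 CPM in endothelial nuclei and was at 2.06 CPM in OPCs, the next of the 8 types, and at 5.71 CPM in fibroblasts, from 3 UMIs. In all, 4 of the 42 guidance genes with 500 UMIs (Plxna2, Robo4, Sema3c, Sema7a) lay above all mice of the other 7 types in endothelial nuclei, where 4.49% of all such genes did so, and the less counted Plxnd1 and Sema3g did as well. Robo4 reached 500 UMIs only through endothelial nuclei. The count is a description and nothing is read from it. Sema6a was at 423 ± 103 CPM in endothelial nuclei and 433 ± 217 in motor neurons, with no order between them. Oligodendrocytes had the highest levels of Sema4d (172 ± 29.9 CPM, against 95.5 in OPCs), of the class B plexin Plxnb3 (91.5 ± 24.3, against 44.8 in OPCs) and of Sema5a (427 ± 84.9, against 334 ± 80.7 in OPCs), and all 3 overlapped with OPCs. Sema5b, in contrast, was highest in OPCs, where it ranged from 66.6 to 271 CPM, above every mouse of the other 7 types, as were 0.103% of genes in the background. Of the other types, astrocytes (1.49% of all such genes), Schwann and meningeal nuclei (0.958%), neurons (0.125%) and microglia (0.0%) had 0 guidance genes above all others. In astrocytes Plxnb1 (55.3 ± 10.0 CPM), Sema4b (54.2 ± 9.55) and Sema4a (44.9 ± 10.3) were highest, each overlapping with the next type. Sema6d was at 1032 ± 98.0 CPM in oligodendrocytes and 956 ± 172 in astrocytes, with overlapping ranges, and at 556 ± 56.2 in neurons.

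**Figure D2:**
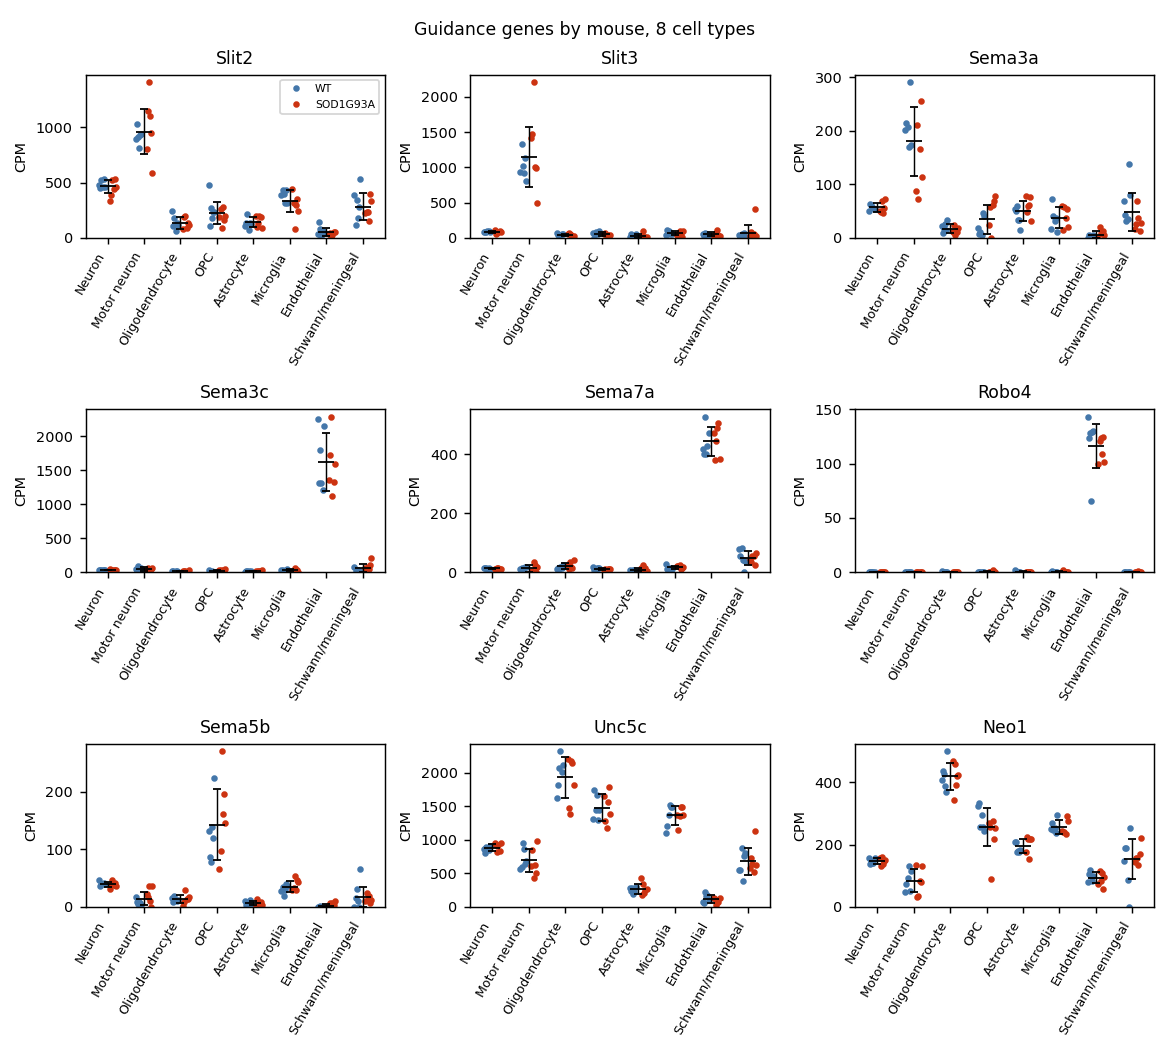
CPM of 9 guidance genes (vertical axes) in the 8 cell types with nuclei of every mouse, 1 point per mouse (blue, WT; red, SOD1G93A), with the mean and SD over 12 mice in black. Motor neuron points of Slit2 lie above all others, endothelial points of Sema3c (1122 to 2284 CPM), Sema7a and Robo4 lie above all others, and Neo1 is highest in oligodendrocytes.

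Neurons were divided by the authors into dorsal, mid and ventral excitatory and inhibitory neurons (DE, DI, ME, MI, VE, VI), ventral cholinergic neurons other than motor neurons (VC), ventral mixed neurons (VM) and neurons of unclear sub-type, by mapping to a reference. The excitatory marker Slc17a6 was at 116 CPM in DE and 106 CPM in VE but 11.8 in DI and 26.7 in VI, and the sum of the inhibitory markers Gad1, Gad2 and Slc6a5 at 306 CPM in DI and 214 in VI but 31.7 in DE and 72.4 in VE. In VC, Slc17a6 was at 107 CPM. The motor neuron markers there summed to a mean of 110 CPM, with 8.44 to 218 CPM in single mice. Their part in the VC levels below was not tested. Dorsal and ventral neurons were compared as a description, since the sub-types rest on the expression of the same nuclei. When DE and DI were summed within each mouse and set against VE and VI, 18 of the 37 guidance genes with at least 500 UMIs had ranges over the 12 mice that did not overlap, 11 higher in dorsal and 7 higher in ventral neurons, beside 17.6% of all 10802 genes with as many UMIs. Of the 11, Sema3f had 694 dorsal and 70 ventral UMIs and reached 500 only through the dorsal side, where it was high. The count is therefore given as a description, and the genes set beside it were not matched for their number of UMIs. For excitatory against inhibitory neurons (DE and VE against DI and VI) it was 7 of 37, beside 3.64% of all genes. Sema3f, with the few UMIs given above, was also among the 7. This count is likewise a description, and nothing is read from it.

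Slit2, Slit3 and Robo1 were higher in ventral and Slit1 and Robo2 in dorsal neurons, each without overlap. Slit2 was at 814 ± 62.4 CPM in ventral and 180 ± 26.4 in dorsal neurons, a mean log2 ratio of dorsal to ventral of −2.18 ± 0.23 (SD, n = 12). By sub-type its highest value was in VI (864 to 1048 CPM) and its lowest in DI (mean 131 CPM). Slit3 was at 93.0 ± 13.8 CPM in ventral and 37.3 ± 5.81 in dorsal neurons, and in VC it reached 412 ± 253 CPM, with values from 110 to 999 CPM in single mice. Slit1 was at 105 ± 13.1 CPM in dorsal and 36.6 ± 5.75 in ventral neurons. Of the receptors, Robo1 was higher in ventral neurons (3394 ± 225 CPM, against 1314 ± 145) and Robo2 in dorsal neurons (1484 ± 89.4 CPM, against 855 ± 94.3).

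Both neuropilins also split. Nrp1 ranged from 257 to 331 CPM in dorsal and from 28.8 to 60.1 CPM in ventral neurons, the largest mean log2 ratio among these 18 genes (mean log2 ratio 2.88 ± 0.29). Nrp2 was the reverse, at 30.3 ± 4.02 CPM in dorsal and 95.5 ± 6.38 in ventral neurons. Among the class 3 ligands, Sema3a was higher in ventral neurons (85.1 ± 15.4 CPM, against 26.9 ± 7.29) and highest of all sub-types in VC (170 ± 53.2 CPM), whereas Sema3e (64.2 ± 8.60 CPM, against 11.4 ± 5.53) and Sema3c (52.0 ± 9.03 CPM, against 17.8 ± 4.85) were higher in dorsal neurons. Sema6d was at 783 ± 49.4 CPM in dorsal and 228 ± 35.0 in ventral neurons, Sema5a at 283 ± 32.4 and 91.6 ± 21.3 CPM, Plxna2 at 347 ± 31.7 and 129 ± 8.76 CPM and Plxnc1 at 36.8 ± 4.02 and 24.0 ± 2.38 CPM. The ventral side held more of Sema5b (63.6 ± 10.9 CPM, against 18.8 ± 3.33).

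Of the 6 netrin receptors, Dcc, Unc5d and Unc5c differed between excitatory and inhibitory neurons without overlap. Dcc was at 2376 ± 126 CPM in excitatory and 1326 ± 131 in inhibitory neurons, and within the dorsal horn at 2628 ± 205 CPM in DE and 1133 ± 157 in DI, while its dorsal and ventral sums overlapped (2072 ± 168 and 1981 ± 192 CPM). Unc5d was at 1034 ± 86.8 CPM in excitatory and 477 ± 79.7 in inhibitory neurons. Unc5c went the other way, with 1065 ± 127 CPM in inhibitory and 843 ± 56.9 in excitatory neurons, and was also higher in dorsal (1168 ± 73.9) than in ventral neurons (546 ± 48.4). Unc5a was higher in ventral (19.4 ± 3.36 CPM) than in dorsal neurons (9.84 ± 2.07), also without overlap. Sema3f, at 13.5 ± 4.06 CPM, was higher in inhibitory neurons (4.18 ± 0.95 CPM in excitatory neurons), and Plxna2, Sema3c and Sema5a were higher in excitatory neurons without overlap. These sums join dorsal and ventral neurons. By sub-type, Sema3f had its highest mean in DI (19.8 CPM) and its lowest in VI (1.71). Sema3c was highest in DE (72.3 CPM) and lowest in VE (17.9). The pooled order of Sema3f and Sema3c thus does not hold within ventral neurons. For Unc5c the lowest mean was in VE, at 544 CPM, close to its ventral sum. None of the 47 genes had every mouse of 1 sub-type above every mouse of all other 8 sub-types. The share of all genes that did so was not counted, so nothing about guidance genes is read from this.

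**Figure D3:**
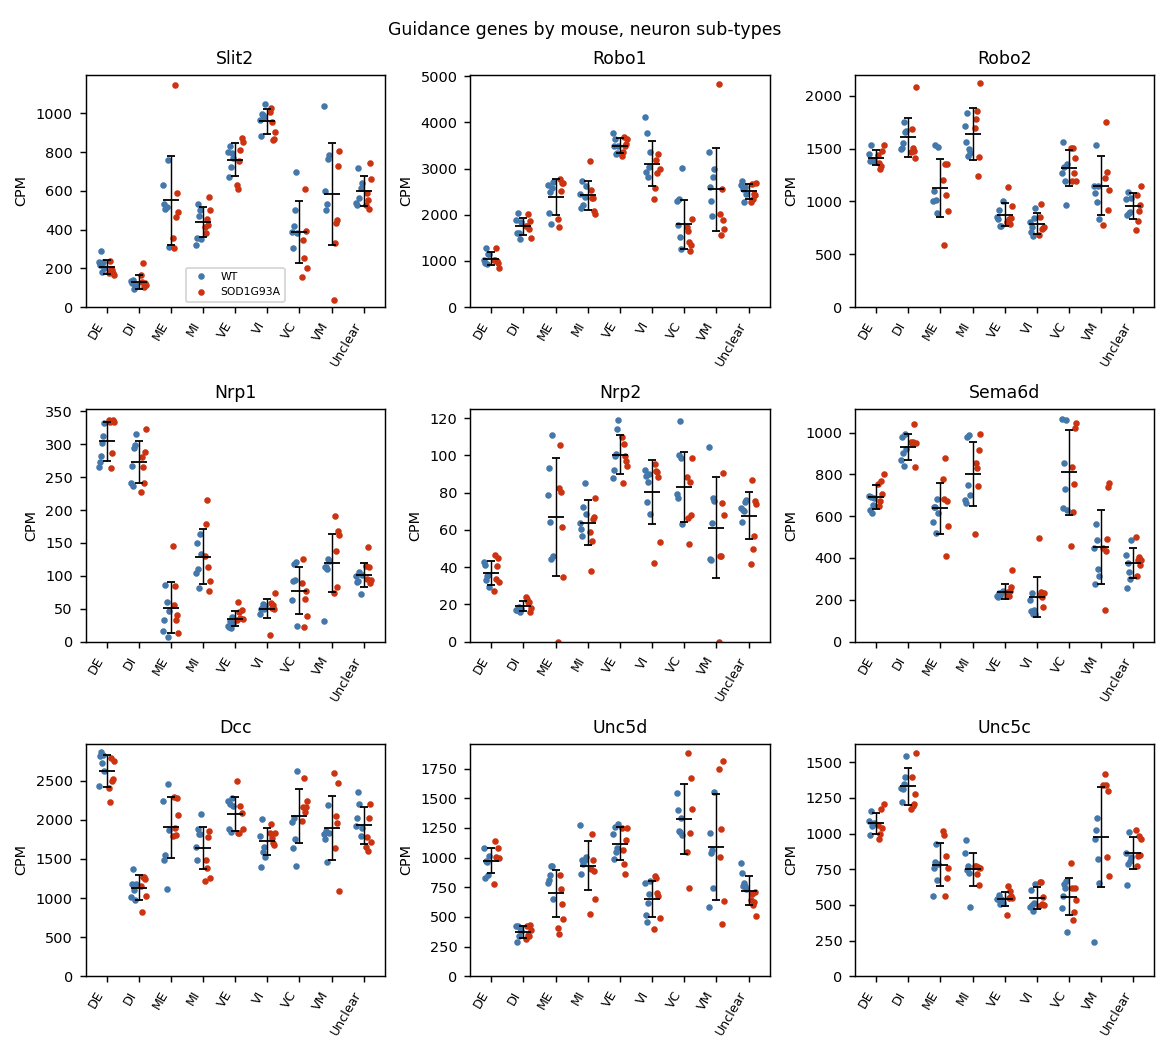
CPM of 9 guidance genes (vertical axes) in the 9 neuron sub-types, 1 point per mouse (blue, WT; red, SOD1G93A), with the mean and SD over 12 mice in black. Slit2, Robo1 and Nrp2 are higher in VE and VI than in DE and DI, Nrp1, Robo2, Sema6d and Unc5c are higher in DE and DI, and Dcc and Unc5d are lowest in DI.

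The next question was which guidance genes differed with genotype. Genes with enough counts were tested in each type with limma on the summed counts of the 12 mice (11 for ependymal cells and 10 for fibroblasts), averaged over the sexes and with a term for the pool, and called at a false discovery rate (FDR) below 0.1 over all genes of the type. Of the 47 genes, 45 passed the count filter in at least 1 type, all but Ntn5 and Sema3b. Of 246 tests of a guidance gene in a cell type, 1 was called, beside 0.568% of all tests of genes. It was Sema6d in astrocytes, among 28 guidance genes tested there, beside 2.29% of all astrocyte genes called. In the other types 0 were called, beside 3.07% of all genes in motor neurons, 0.0759% in microglia, 0.0475% in oligodendrocytes, 0.0411% in OPCs, 0.036% in Schwann and meningeal nuclei, 0.0255% in neurons, 0.0131% in endothelial nuclei and 0.0% in ependymal cells and fibroblasts. At an unadjusted p below 0.05 there were 24 of 246, or 9.76%, beside 7.18% of all 68984 tests of genes.

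**Figure D4:**
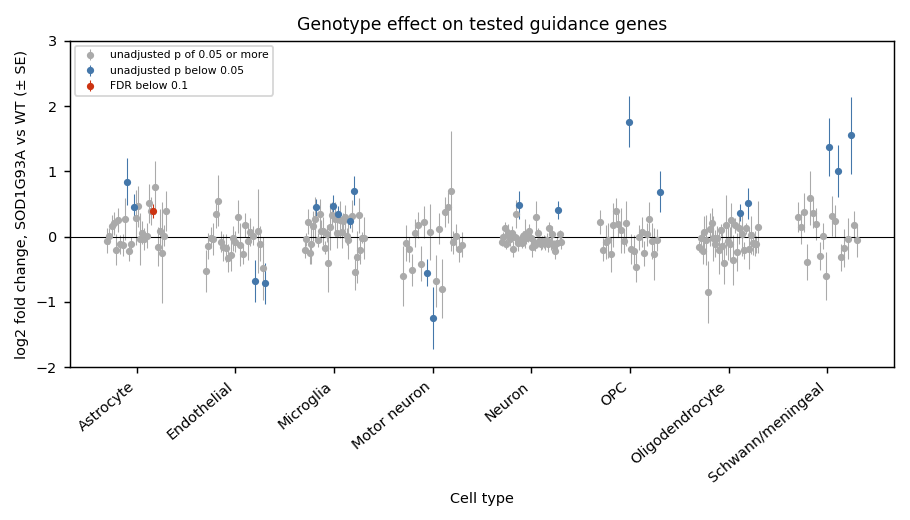
Log2 fold change (SOD1G93A against WT, ± SE) of each guidance gene tested in the 8 cell types with nuclei of every mouse, ordered by symbol within a type. Points lie on both sides of 0 in every type. The red point is Sema6d in astrocytes (0.39), blue points have an unadjusted p below 0.05, and grey points do not.

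Sema6d encodes a transmembrane semaphorin that binds class A plexins and lies on chromosome 2 (GRCm38 chr2:124089969-124667770, plus strand). On the scaled CPM of the test, the 6 WT mice ranged from 731 to 929 (median 862) and the 6 SOD1G93A mice from 1021 to 1269 (median 1097). The groups did not overlap, as for 0.984% of the 9347 astrocyte genes tested, and SOD1G93A was higher in 6 of 6 pairs. In the other 7 types 0 members had groups that did not overlap, beside 0.144% of all genes in endothelial nuclei and in OPCs, 0.153% in neurons, 0.216% in Schwann and meningeal nuclei, 0.304% in oligodendrocytes, 0.391% in microglia and 0.996% in motor neurons. The log2 fold change was 0.39 ± 0.10 (SE), with a limma FDR of 0.0629. The call was at the edge. The edgeR quasi-likelihood test gave an FDR of 0.105, and leaving out 1 mouse at a time gave limma FDRs between 0.0521 and 0.203, above 0.1 without female WT A, male WT B, male WT C, female SOD1G93A B, male SOD1G93A A or male SOD1G93A C, while the fold change stayed between 0.31 and 0.42. The summed oligodendrocyte markers in the astrocyte nuclei ranged from 685 to 1109 CPM in WT and from 932 to 1783 CPM in SOD1G93A mice, and the neuronal markers from 563 to 913 and from 602 to 1379 CPM, with none of these markers at 0, while the astrocyte markers Aqp4, Slc1a2 and Aldh1l1 themselves ranged from 5200 to 6643 and from 5853 to 7795 CPM. Their part in the result was not tested. Sema6d in other types had log2 fold changes of 0.13 ± 0.09 in neurons, 0.13 ± 0.08 in oligodendrocytes, 0.24 ± 0.11 in microglia and 0.45 ± 0.24 in motor neurons, none called. The difference between its effects in astrocytes and in neurons was 0.25 ± 0.14 (SE; limma FDR 0.514, with 0.0% of 9256 genes called), so that the effect was not shown to differ between these types.

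Among the members of smallest unadjusted p in each type, none of the following passed the threshold, and their values are given without a direction being drawn. For Sema3a in motor neurons, the WT mice ranged from 185 to 334 scaled CPM (median 232) and the SOD1G93A mice from 67.9 to 278 (median 141), lower in 6 of 6 pairs (log2 fold change −0.55 ± 0.21, limma FDR 0.19, and 0.0637 to 0.425 when 1 mouse was left out, below 0.1 only without female WT B). For Sema3d in motor neurons, the ranges were 52.2 to 160 in WT and 0.0 to 109 in SOD1G93A mice, lower in 5 of 6 pairs (−1.25 ± 0.48, limma FDR 0.22), from 264 UMIs in all. DESeq2 gave it an FDR of 0.0763, and limma gave 0.0029 without a filter on low counts and 0.0111 without male SOD1G93A B. The other 11 fits that left out 1 mouse did not pass, with limma FDRs up to 0.407. Nrp2, which binds other class 3 semaphorins, was lower in 4 of 6 pairs in the same nuclei (−0.51 ± 0.25, limma FDR 0.32). These 3 values rest on 44 WT and 23 SOD1G93A motor neurons, and the SOD1G93A female of pool C had 1. In OPCs, the log2 fold change of Sema3a was positive, at 1.76 ± 0.39 (limma FDR 0.218). The WT mice ranged from 6.22 to 51.9 scaled CPM there and the SOD1G93A mice from 0.0 to 89.0, from 116 UMIs in all, and the value of 0 came from the SOD1G93A female of pool C with 2 OPCs. The limma FDR of Sema3a in OPCs was 0.0119 without male WT B and 0.0481 without male SOD1G93A B. It was above 0.1 in the other 10 such fits, up to 0.329. Without a filter on low counts it was 0.0508, and the other processing alternatives did not pass, with FDRs up to 0.551.

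**Figure D5:**
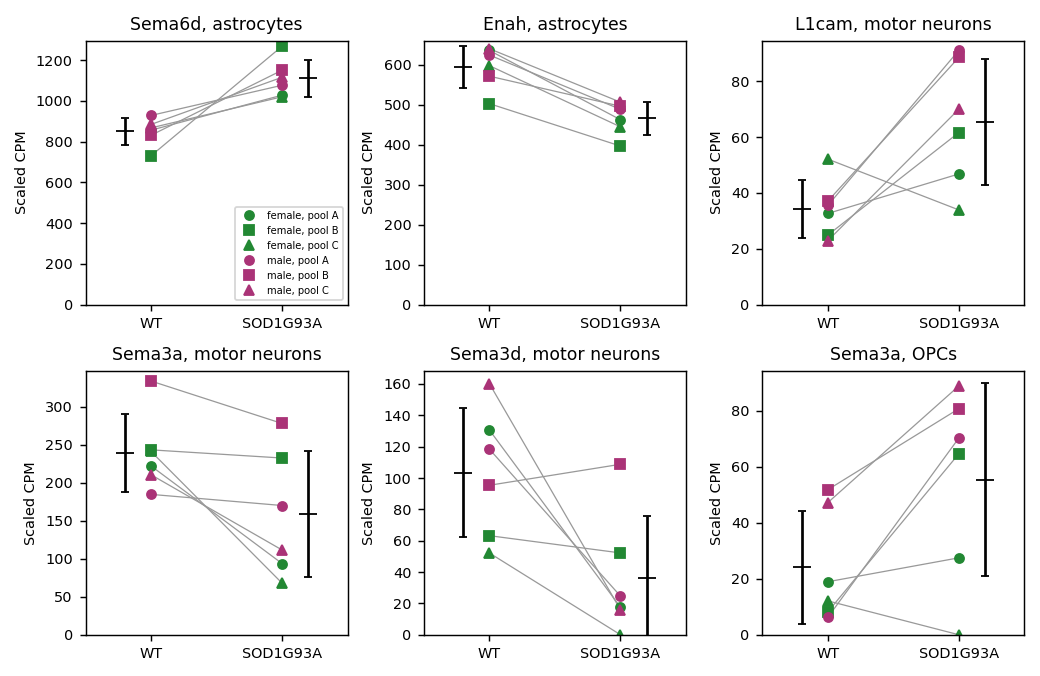
Scaled CPM (vertical axes, from 0) of 6 genes in WT and SOD1G93A mice, with a line joining the mice of the same sex and pool (green, females; purple, males; circles, squares and triangles, pools A, B and C) and the mean and SD of 6 mice beside the points (cut at 0 for Sema3d). Sema6d lies higher and Enah lower in SOD1G93A astrocytes in 6 of 6 pairs, and Sema3a and Sema3d in motor neurons and Sema3a in OPCs overlap between genotypes.

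In the other types the values were as follows. Astrocytes had log2 fold changes of 0.84 ± 0.36 for Plxnc1 (limma FDR 0.29) and 0.46 ± 0.20 for Sema3a (0.313). Microglial nuclei, with the neuronal RNA described above, had 0.45 ± 0.13 for Plxna2 (limma FDR 0.277, and 0.0858 to 0.783 when 1 mouse was left out, below 0.1 only without male SOD1G93A C), 0.70 ± 0.23 for Slit1 (0.339) and 0.47 ± 0.16 for Sema3e (0.339). Schwann and meningeal nuclei had 1.37 ± 0.44 for Sema3c (limma FDR 0.753, and 0.0215 to 1.0 when 1 mouse was left out, below 0.1 only without male SOD1G93A A), 1.55 ± 0.59 for Slit3 and 1.00 ± 0.40 for Sema6a (both 0.999). For Slit3 and Sema6a 1 mouse, the SOD1G93A male of pool B, held the highest values (525 and 888 scaled CPM), and it also held the highest sum of motor neuron markers, 887 CPM, where the other 11 mice had 202 to 507 CPM. Without it the log2 fold change of Slit3 was 0.69 and that of Sema6a 0.53, and without female WT B they were 0.12 and 0.59. In endothelial nuclei the 3 smallest p belonged to Unc5d (−0.72 ± 0.32), Slit2 (−0.68 ± 0.32) and Sema5a (−0.26 ± 0.15), each with a limma FDR of 0.98, and Sema3c, the semaphorin of highest level there, had −0.08 ± 0.16. In neurons they were Unc5b (0.40 ± 0.14), Plxnb3 (0.48 ± 0.22) and Slit3 (−0.21 ± 0.13), in oligodendrocytes Sema5a (0.37 ± 0.13, limma FDR 0.91), Sema7a (0.51 ± 0.24) and Dcc (−0.15 ± 0.08), and in OPCs after Sema3a they were Unc5d (0.69 ± 0.31) and Plxna2 (0.40 ± 0.19). For Slit2 and Slit3, the log2 fold changes in motor neurons were −0.09 ± 0.18 and 0.01 ± 0.18.

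As a list, the members tested had median log2 fold changes of −0.04 in neurons (all genes 0.00), −0.04 in oligodendrocytes (0.01), 0.08 in astrocytes (0.02), −0.10 in motor neurons (0.00), −0.08 in endothelial nuclei (−0.01), −0.03 in OPCs (−0.01), 0.08 in microglia (0.01) and 0.18 in Schwann and meningeal nuclei (0.00), where the male of pool B is included. The median absolute change was 0.09 in neurons (all genes 0.07), 0.14 in oligodendrocytes (0.12), 0.20 in astrocytes (0.19), 0.23 in motor neurons (0.25), 0.17 in endothelial nuclei (0.16), 0.20 in OPCs (0.18), 0.23 in microglia (0.14) and 0.31 in Schwann and meningeal nuclei (0.19). Across the 9 neuron sub-types 0 of 281 tests were called by limma and 0 by edgeR, with 27 (9.61%) at an unadjusted p below 0.05 beside 4.54% of all tests, and with 0.0252% of all tests called. DESeq2 called 2, Sema5a in MI and Sema3c in VC. The share of all tests that DESeq2 called is not given, so nothing about the list is read from this count. The smallest limma FDR, picked after its values were seen, belonged to Unc5d in neurons of unclear sub-type (0.113), where the log2 fold change was −0.38 ± 0.08. It was 0.0138 without female WT B and 0.0114 without male SOD1G93A B. It did not pass in the other 10 such fits. Unc5d in these neurons also passed without a filter on low counts (limma FDR 0.0274) and with a minimum count of 30 (0.0935), but not with edgeR or DESeq2. In ME, where it was not called as reported, Unc5d passed without a filter (−0.62, limma FDR 0.0248) and without female SOD1G93A C (−0.84, 0.0301).

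Other genes of the pathway were taken from a list of 58 co-receptors, further ligands and cytoplasmic signalling proteins, of which 54 were tested in at least 1 type. For genotype 1 was higher and 1 lower in 376 tests, beside 0.568% of all tests of genes called. The calls were in astrocytes and motor neurons, where 2.29% and 3.07% of all genes were called. At an unadjusted limma p below 0.05 there were 40 (10.6%), beside 7.18% of all tests. Enah, an actin regulator that acts downstream of Robo and netrin receptors, lies on chromosome 1 (GRCm38 chr1:181896384-182019990, minus strand) and was lower in SOD1G93A astrocytes. The WT mice ranged from 502 to 640 scaled CPM and the SOD1G93A mice from 396 to 506, lower in 6 of 6 pairs with ranges that overlapped slightly (log2 fold change −0.35 ± 0.10, limma FDR 0.0974). L1cam, an adhesion molecule that joins neuropilin in the receptor for Sema3a, lies on chromosome X (GRCm38 chrX:73853778-73896105, minus strand) and was higher in SOD1G93A motor neurons. It ranged from 22.9 to 52.2 scaled CPM in WT and from 33.9 to 91.2 in SOD1G93A mice, from 75 and 103 UMIs, higher in 5 of 6 pairs (0.98 ± 0.28, limma FDR 0.086). In the same motor neuron nuclei the summed inhibitory markers ranged from 0.0 to 49.8 CPM in WT and from 0.0 to 103 CPM in SOD1G93A mice, the excitatory marker from 0.0 to 13.0 and from 0.0 to 64.9 CPM, the astrocyte markers from 18.4 to 143 and from 0.0 to 422 CPM, and the motor neuron markers from 314 to 456 and from 362 to 767 CPM. Their part in the result was not tested. Both calls were fragile, since leaving out 1 mouse at a time kept the limma FDR below 0.1 in 3 of 12 fits for Enah and 1 of 12 for L1cam. The edgeR FDRs were 0.138 for Enah and 0.182 for L1cam, and those of DESeq2 0.0674 and 0.255. Against neurons, the differences of effect were −0.31 ± 0.12 for Enah in astrocytes (limma FDR 0.374) and 0.82 ± 0.23 for L1cam in motor neurons (limma FDR 0.302), with 0.0% of genes called in either comparison.

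Between the sexes limma called 0 of 246 tests of guidance genes in the 10 types, with 24 (9.76%) at an unadjusted p below 0.05 beside 5.56% of all tests, and with 0.159% of all tests called. The edgeR quasi-likelihood test and DESeq2 each called 1, Sema3d in OPCs, lower in females (edgeR FDR 0.0904, DESeq2 FDR 0.0723, limma FDR 0.136). The shares of all tests called by edgeR and DESeq2 are not given, so nothing about the list is read from these counts. Genotype effects did not pass the test of a difference between males and females for any guidance gene in a cell type, by limma, edgeR or DESeq2, with 10 of 246 at an unadjusted limma p below 0.05 beside 3.11% of all tests and 0.0058% of all tests called. In the neuron sub-types limma, edgeR and DESeq2 each called 0 of 281 tests of guidance genes for this difference, and limma called 1 of 416 tests of the other pathway genes, beside 0.0782% of all tests called, and 10 of the 281 (3.56%) had an unadjusted p below 0.05 beside 4.08% of all tests. The called gene was Pak1, a kinase downstream of Rac and Cdc42, in neurons of unclear sub-type, where 0.459% of 11109 genes were called. Its scaled CPM were 171, 130 and 148 in WT females of pools A, B and C and 268, 154 and 222 in SOD1G93A females, higher in each pool, and 200, 141 and 226 in WT males and 179, 142 and 150 in SOD1G93A males. The log2 fold change was 0.50 ± 0.13 in females (limma FDR 0.111) and −0.24 ± 0.12 in males (limma FDR 0.997), a difference of −0.74 ± 0.18 (limma FDR 0.0988). The call was at the edge, since edgeR gave an FDR of 0.177 and DESeq2 0.219, and it was kept in 4 of 12 fits that left out 1 mouse.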

How the data were processed

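As described by the authors, reads of the 3 pools were processed with Cell Ranger 3.1 on a pre-mRNA version of mm10, nuclei were assigned to mice by hashtag, and nuclei with under 200 genes, over 10% mitochondrial reads, or with several or no hashtags were removed. The deposited counts are UMIs per gene and nucleus, not normalized; mitochondrial genes are absent from them, and the deposited mitochondrial values are percent of UMIs, at most 9.993. Mice, genotypes, types and sub-types came from the deposited table of nuclei. Only doublets with several hashtags were removed by the authors, and none were sought here. Pools shared 15 barcodes (30 nuclei), and 27 neurons had no sub-type.

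UMIs were summed per gene, type and mouse. CPM are shares of that sum, and scaled CPM use TMMwsp library sizes. Tests followed the study: filterByExpr (minimum count of 10), limma 3.58.1 voom with group and pool terms, robust eBayes, and Benjamini-Hochberg adjustment over all genes of a type. The robust option was set here. edgeR 4.0.16 and DESeq2 1.42.0 were alternatives, in R 4.3.3. Counting error limits fibroblasts and ependymal cells most, with medians of 11318 and 17357.5 UMIs per mouse. Pools are the batches of the labels and were a term in the models as reported (fits without it were an alternative): deviations from group means correlated at a median r of 0.246 between neurons of the same pool and −0.129 of different pools (oligodendrocytes 0.116 and −0.0513, astrocytes 0.0298 and −0.0143).

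The guidance genes and lists were chosen with earlier results of these data known. Named in full are members past the threshold in any contrast and, per type with at least 15 members tested, the 3 of smallest unadjusted p for genotype; other pathway genes are named past the threshold in a type, and Pak1, called in a sub-type, was added after its values were seen. Gene positions are from GENCODE vM21 on GRCm38, the build of mm10. The deposited table of integrated, normalized values was not used.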

Additional observations from a re-analysis of the deposited data

Results flagged for a closer look

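Dixon's ratio was computed for the 6 mice of each genotype for the genes named in the genotype comparison (52 groups), where chance flags about 1 in 20 groups, and 3 values stood apart. The SOD1G93A male of pool B had 525.4 scaled CPM of Slit3 in Schwann and meningeal nuclei, where the other 5 SOD1G93A mice had 32.5 to 90.2, and 888.2 scaled CPM of Sema6a, where the others had 99.98 to 194.8. The same mouse had the highest summed motor neuron markers in these nuclei (887 CPM), whose part in both values was not tested. The WT female of pool A had 5.215 scaled CPM of Plxnb3 in neurons, where the other WT mice had 2.21 to 3.18, and without this mouse the log2 fold change of Plxnb3 was 0.59 (0.48 with it), while without male WT A it was 0.22. For Pak1 in neurons of unclear sub-type, the genotype effect differed between the sexes (male minus female −0.743 ± 0.180 on the log2 scale, limma FDR 0.0988), with the fitted effect positive in females and negative in males.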

How the results depend on the processing

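The counts of calls below are given without the share of all genes called in the same setting. Nothing about the guidance or other pathway genes as a list is read from them. The guidance genes called for genotype in the 10 cell types (1 as reported) numbered 0 with the edgeR quasi-likelihood test, 2 with DESeq2 and 5 without a filter on low counts, and 0 to 3 when 1 mouse was left out. In the neuron sub-types (0) they numbered 2 with DESeq2, 3 without a filter, 1 with a minimum count of 30 and 0 to 1 when 1 mouse was left out. For sex (0) they numbered 1 each with edgeR, DESeq2 and no filter, and 0 to 4 when 1 mouse was left out, with 4 without male WT B, all in OPCs (Nrp1, Ntn1, Sema3d, Sema5b). For the difference of the genotype effect between the sexes every setting gave 0 in the 10 cell types, and in the neuron sub-types 0 to 1 when 1 mouse was left out (Sema5a in MI without male WT C, Plxna4 in neurons of unclear sub-type without female WT B, Sema3c in VI without male SOD1G93A B, Sema3e in VM without female SOD1G93A C) and 0 otherwise. The other pathway genes called for genotype (2) numbered 0 with edgeR, 4 with DESeq2, 4 with TMM factors, 6 without a filter (neither Enah, limma FDR 0.122, nor L1cam, 0.258), 0 without the replicate block of pools (Enah 0.135, L1cam 0.106) and 0 to 11 when 1 mouse was left out, with 11 without female WT B and 8 without male SOD1G93A B. Without the pool block Sema6d in astrocytes kept its call (log2 fold change 0.39, limma FDR 0.0695), and the cause of the other changes was not tested. Of 489 refits of the 26 results (20 genes, each in 1 or more types) named for genotype, 0 reversed, 446 kept their side of the threshold, 34 lost it and 9 gained it, and a minimum count of 30 gave no value for genes it removed, such as L1cam in motor neurons and Sema3a in OPCs. Only the called results, Sema6d, Enah and L1cam, could lose the threshold, so all 34 losses were theirs. They passed in 6, 3 and 1 of 12 fits without 1 mouse. In the other alternatives Sema6d passed in 6 of 7, Enah in 4 of 7 and L1cam in 2 of 6. Leaving out mice with under 5 nuclei of a type, chosen after seeing the data, could be refitted in OPCs, ependymal cells and ventral mixed neurons, with 0 guidance genes called for genotype there (Unc5d in OPCs 1.03, limma FDR 0.229), but not in motor neurons, where all 3 SOD1G93A females had under 5, or in fibroblasts. Log2 fold changes below the threshold that moved by over 1.5 times when 1 mouse was left out included Nrp2 in motor neurons (−0.33 without female SOD1G93A A, −0.98 without female SOD1G93A B), Sema3a in astrocytes (0.30 without male SOD1G93A B), Sema7a in oligodendrocytes (0.76 without female WT B, 0.28 without female WT C, 0.34 without male SOD1G93A C), Slit1 in microglia (0.47 without female WT B), Slit2 in endothelial nuclei (−0.45 without male SOD1G93A B, and −0.33 without the replicate block, the 1 such move among the processing alternatives), Unc5d there (−0.42 without female WT C, −0.41 without female SOD1G93A C) and Slit3 in neurons (−0.34 without female SOD1G93A A, −0.08 without female SOD1G93A B, −0.12 without male SOD1G93A A). The refits of the difference between the sexes in the sub-types were added after seeing the data, and for Pak1 in neurons of unclear sub-type it passed with a minimum count of 30 (limma FDR 0.0779), but not with TMM factors (0.114), no filter (0.339), no replicate block (0.997) or eBayes without the robust option (0.104), nor without female WT A or C, male WT B or C, female SOD1G93A A or C, or male SOD1G93A A or C (0.111 to 0.467). The type of highest level stayed the same for 37 of 47 genes with TMMwsp-scaled CPM over all types, 43 with the median over mice and 41 with WT mice only. Few nuclei limit motor neurons, OPCs, ependymal cells and fibroblasts, where a missing call does not show that a gene did not differ.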
